A study of Homo sapiens with 2 samples.

Results

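The densest megabases of E2F1 binding in LNCaP-abl cells are the 1 Mb bins of chromosomes 1 to 22 that hold 35 or more called peaks, with each peak placed by its midpoint. There were 84 such bins among 2546 autosomal bins with a peak (3.30%), and they held 3598 of the 28734 peaks in the list. The other 24510 autosomal peaks lay in 2462 bins with 34 peaks or fewer, and 626 peaks on X, Y and the mitochondrial chromosome stood outside the rule. The bins were chosen by their number of called peaks, so the density itself is a description and not a finding. Because bins and peaks come from 1 library, no test was made, and every comparison below is a description of this list.

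The peaks come from chromatin immunoprecipitation followed by sequencing (ChIP-seq) with a pair of E2F1 antibodies. The other of the 2 samples in the series is an input made without antibody, whose signal is not analysed here. LNCaP-abl cells derive from the LNCaP prostate cancer line and grow without androgen, and both samples are unmodified cells of this line at passages 61 to 64. They were kept in medium with 10% charcoal-stripped serum and went without androgen for 3 days before collection, which holds for the immunoprecipitation and for the input. The identity of the line cannot be checked against expression markers in a list of peaks, and a single cancer line, with a rearranged genome of its own, limits what the list can stand for. Read depth is unknown, because the list gives positions and the authors' score of each peak but no read counts.

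E2F1 is a transcription factor that binds DNA as a dimer with a DP protein and is held inactive by the retinoblastoma protein until cells commit to S phase. Its best-known targets are genes for DNA replication, nucleotide synthesis and the cell cycle, and it binds mainly near the starts of genes in DNA rich in CpG. Gene starts are spread unevenly over human chromosomes, with chromosomes 16, 17, 19 and 22 known as rich in genes. The genes under the peaks were not assigned here, for want of an annotation of the build, and all coordinates below are hg19 and 1-based.

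Dense bins were found on 17 of the 22 autosomes. Chromosome 19 held 14 of them, or 14 of its 58 bins with a peak. Chromosome 17 held 13 of 79, chromosome 16 held 9 of 75 and chromosome 11 held 8 of 125. Chromosome 1, the longest, held 7 of 222. On chromosome 19 the dense bins took 41.0% of the autosomal peaks of that chromosome, against 9.72% on chromosome 1. Dense bins thus made up a large part of the E2F1 map on a few chromosomes and a small part on most others.

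Many dense bins lay side by side or near the outermost peaks of their chromosome. Of the 84, 42 stood alone and 42 formed 16 runs of adjacent bins. The longest run had 5 bins and 234 peaks and began at the tip of chromosome 16, from 1 to 5000000. Runs of 4 bins lay on chromosome 11 from 64000001 to 68000000, with 194 peaks, and on chromosome 19 from 10000001 to 14000000, with 163 peaks. A total of 27 dense bins (32.1%) were among the 5 outermost bins at an end of their chromosome's peaks, where 8.29% of all autosomal bins with a peak lie. Such an end need not be the end of the chromosome. On chromosome 14 the first bin with a peak was megabase 19, and the dense bin from 23000001 to 24000000 counted among the 27. Neighbouring dense bins were only slightly more alike in score than any pair of them. Their medians differed by a median of 9.05 over 26 adjacent pairs, against 10.9 over all 3486 pairs.

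Peaks in the dense bins had higher scores than peaks elsewhere. The score is the authors' value for each peak, taken here as the peak caller's, higher for stronger peaks and on a scale not given in the sources used here. Its median was 34.7 in the dense bins (95% interval 32.6 to 36.4) and 22.1 (21.6 to 22.6) in all other bins, with 23.4 over all autosomal peaks. The quartiles were 13.7 and 74.2 in the dense bins and 9.55 and 58.9 elsewhere, so the distributions overlapped over most of their range. Intervals of medians are exact order-statistic intervals and those of shares are exact Clopper-Pearson intervals. Both cover counting error only and treat peaks as independent, which neighbouring peaks are not.

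The difference lay at both ends of the score range. A score above 100 was found at 595 dense-bin peaks, or 16.5% (15.3 to 17.8%), against 12.1% of all autosomal peaks and 11.5% (11.1 to 11.9%) of peaks in other bins. A score below 10 was found at 588 dense-bin peaks, or 16.3% (15.1 to 17.6%), against 25% of all autosomal peaks and 26.3% (25.8 to 26.9%) elsewhere. Strong peaks were therefore over-represented and weak ones under-represented among the members. Among peaks in the upper 50% by score, the medians were much closer, at 62.9 and 60.6, and the interval of their difference (-0.85 to 5.60) included 0. Per bin, the dense bins held 7.08 peaks above 100 on average and the others 1.14, much of which follows from the number of peaks that chose the bins, 42.8 against 9.96 on average.

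The gradient of score with density began far below the threshold of 35 peaks. The median score was 14.96 in bins with 1 to 5 peaks, 18.5 with 6 to 10 and 21.2 with 11 to 15. It was 22.8 with 16 to 20 peaks, 27.7 with 21 to 25 and 30.9 with 26 to 34. Each denser class had the higher median, and the dense bins at 34.7 continued the series without a jump. At the threshold itself, the 14 bins with 35 or 36 peaks had a median score of 29.8 over their peaks, and the 16 bins with 33 or 34 peaks had 28.05. Across bins the relation was loose, with a Spearman's rho of 0.29 between number of peaks and median score over the 1164 bins with at least 10 peaks. These bins share 1 library and 1 set of peak calls.

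**Figure D1:**
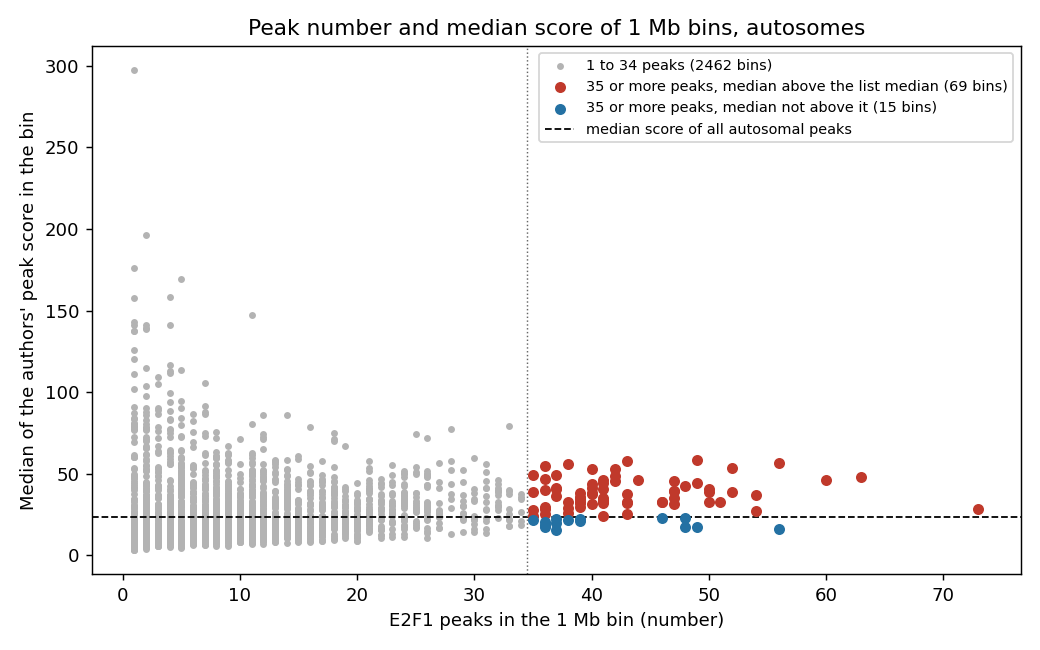
Each point is a 1 Mb autosomal bin, with its number of E2F1 peaks on the x axis and the median of the authors' score on the y axis. The dashed line is the median of all autosomal peaks, 23.4, and the dotted line marks the threshold of 35 peaks. Of the 84 dense bins, 69 (red) lie above the dashed line and 15 (blue) do not, and the scatter of medians is widest in bins with few peaks.

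The higher score was seen on every chromosome that had a dense bin. The median score of dense-bin peaks was above that of the other peaks of the same chromosome on 17 of 17 chromosomes, 10 of which had at least 3 dense bins. On chromosome 19 the medians were 40.7 and 35.4, a difference of 5.30. Chromosome 11 had a wider gap, with 41.3 in its dense bins and 21.4 elsewhere. On chromosome 14, with 2 dense bins, the gap was 26.3. Chromosome 6 had one of the smallest gaps, with 21.3 in its 6 dense bins and 20.2 elsewhere, and chromosome 3, with 1 dense bin, had 21.8 and 21.6.

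Members were also wider, and most of this went with their score. The median width was 503.5 bp (491 to 517) in the dense bins and 405 bp (401 to 410) in all others, and it was larger in the dense bins on 17 of 17 chromosomes. The lowest width in the list, 200 bp, was held by 60 dense-bin peaks (1.67%), against 2.98% of all autosomal peaks. When all autosomal peaks were divided into quintiles by score, the difference was much smaller. In the lowest quintile the median width was 240 bp in both sets, and in the highest it was 740.5 bp in the dense bins and 753 bp elsewhere. The middle quintile had the largest difference, 431 bp (415 to 447) against 402 bp (396 to 408), with intervals apart. Averaged over the quintiles, the medians were 471 and 464 bp. Together the members covered 2.40% of the bases in their bins, against 0.4997% in the other bins.

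Set against the number of peaks in a bin, the median spacing was similar in dense and other bins. Measured from edge to edge, the median distance to the nearest other peak was 6425 bp (6052 to 6709) in the dense bins and 19060.5 bp (18527 to 19543) elsewhere. A shorter distance follows from the rule, since more peaks share 1 Mb. Set against the room per peak in its own bin, 1 Mb over the number of peaks, the median distance was 27.9% in the dense bins and 26.8% in the others. By this median, peaks in dense bins lay about as near to their nearest neighbour, for their number, as peaks elsewhere. A single median does not describe the whole spread of distances. With more peaks, more of the bin was filled, which also follows from the rule. Each of its 10 stretches of 100 kb held a peak in 48 of the 84 dense bins (57.1%), against 88 of the 1080 other bins with at least 10 peaks (8.15%). The fullest 100 kb stretch of a dense bin held between 6 and 15 peaks, and the longest gap between peaks inside a bin ran from 54498 to 294392 bp.

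A close neighbour was more common in denser bins, which the rule itself favours, since more peaks share 1 Mb. Another peak within 1 kb was found for 840 dense-bin peaks, or 23.3% (22.0 to 24.8%), against 17.3% of all autosomal peaks and 16.4% (15.95 to 16.9%) in other bins. The share was 6.87% in bins with 1 to 5 peaks and 22.3% in bins with 26 to 34 peaks, and it was larger in every denser class. Within chromosomes the direction was less even, with a higher share in the dense bins on 12 of 17 chromosomes. Most close groups were small. Chaining peaks no more than 1 kb apart gave 365 pairs, 30 groups of 3 and 5 groups of 4 within dense bins. The groups of 4 lay on chromosomes 6 (2 groups), 16, 17 and 20.

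Weak peaks had the most close neighbours in dense bins. In the lowest quintile by score, 29.9% of dense-bin peaks had another peak within 1 kb, against 14.1% of peaks elsewhere. In the next quintile the shares were 32.7% and 16.5%. In the highest quintile they were 15.8% and 12.7%. The contrast between dense and other bins was thus large for weak peaks and small for the strongest.

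**Figure D2:**
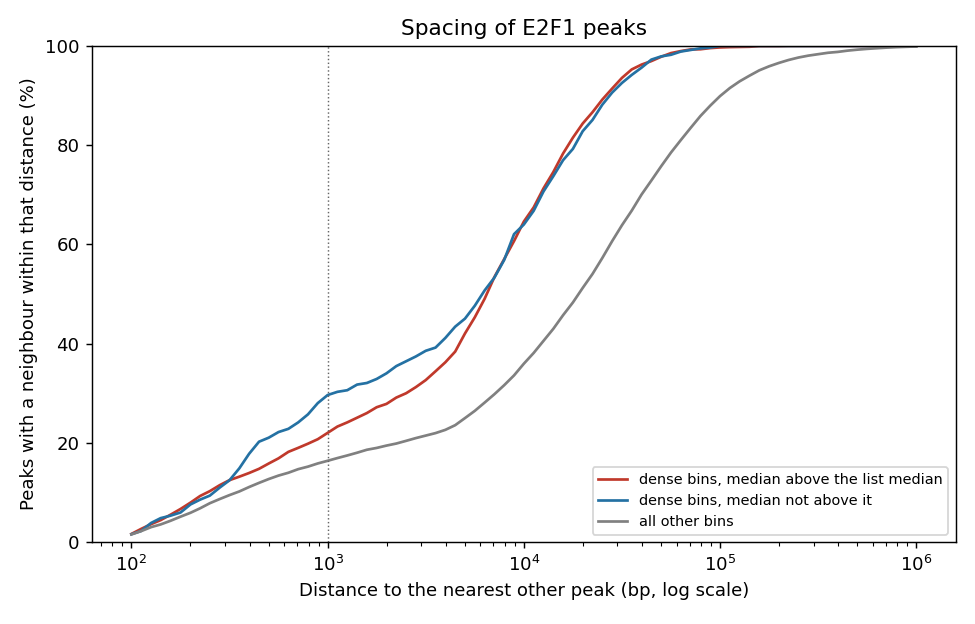
Cumulative share of peaks (y axis, percent) with another peak within the distance on the x axis (bp, log scale). Lines stand for dense bins with a median score above that of all autosomal peaks (red), dense bins with a median not above it (blue) and all other bins (grey). At 1 kb, marked by the dotted line, the shares are 22.0, 29.7 and 16.4%, and beyond about 10 kb both lines for dense bins run together.

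Lone peaks scored higher in denser bins, while the median of peaks with a close neighbour, called paired here, varied little. In dense bins, the 2758 peaks with no other peak within 1 kb had a median score of 39.1 (36.2 to 41.4), and the 840 with one had 23.8 (19.9 to 27.2). In other bins the medians were 21.9 (21.3 to 22.5) and 22.8 (21.8 to 23.7). The higher score of the dense bins was thus seen among their lone peaks, while the intervals of paired peaks inside and outside overlapped. Over the classes of density, the median of paired peaks stayed between 21.2 and 26.01. The median of lone peaks was 14.6 in bins with 1 to 5 peaks, 21.2 with 11 to 15, 29.8 with 21 to 25 and 39.1 with 35 or more. Paired peaks had the higher median in bins with up to 15 peaks and the lower one in all denser classes, with overlapping intervals from 11 to 20 peaks. Of 83 dense bins with both kinds, 59 (71.1%) had the lower median among paired peaks, against 387 of 824 bins with 10 to 34 peaks (47.0%).

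**Figure D3:**
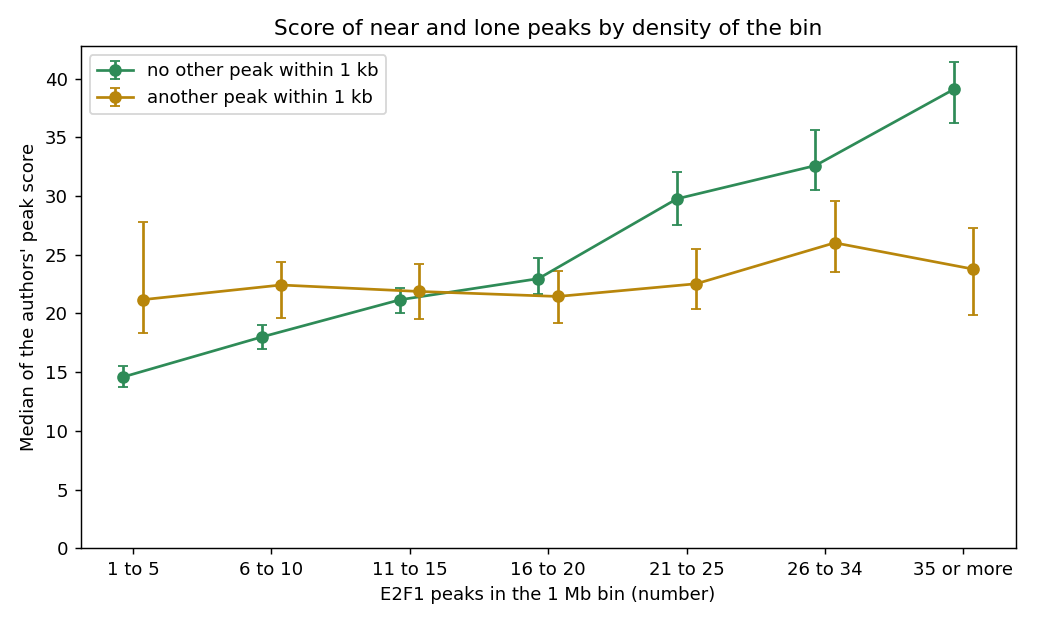
Median of the authors' score (y axis) for peaks with and without another peak within 1 kb, by the number of peaks in their 1 Mb bin (x axis). Bars are exact 95% order-statistic intervals, which cover counting error only. The line of lone peaks climbs from 14.6 to 39.1, while that of paired peaks stays between 21.2 and 26.01, and the lines cross between the classes of 11 to 15 and 16 to 20 peaks.

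Close pairs in dense bins had lower scores than wider ones, and a smaller median difference in score. How unequal the pairs were relative to their level was not tested. Over 440 neighbouring pairs within 1 kb the stronger member had a median score of 51.4 and the weaker one 12.4. Over 3100 neighbouring pairs more than 1 kb apart the values were 66.1 and 17.7. The median difference within a pair was 30.9 for close and 35.4 for wider pairs, and 29.2 and 27.3 in other bins. Both members were above the median score of all autosomal peaks in 22.7% of the close pairs and 40.6% of the wider ones, and in 20.9% and 25.1% of such pairs in other bins. Close pairs with both peaks above 100 were rare, at 3 of the 440 (0.68%), against 4 of 2108 in other bins (0.19%). Among the wider pairs in dense bins the share was 3.61%. All 3 close pairs lay in dense bins with a median score not above that of all autosomal peaks. One lay on chromosome 2 from 242088339 to 242089404 and from 242089536 to 242090064, with scores of 142 and 103. The others were on chromosome 6. Its first pair ran from 27099355 to 27099992 and from 27100328 to 27101101, with scores of 190 and 141. Its second pair ran from 27113625 to 27114166 and from 27114613 to 27115184, with both scores at 174. A list without summits does not tell whether such pairs are separate sites or 1 enriched stretch.

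Most of the spread in score lay within the dense bins, not between them. The lowest median score of a bin was 15.7 and the highest 58.3. The middle of the 84 lay at 34.8, between quartiles of 27.8 and 42.7. The scores inside each bin ran over a much wider range, and only 2.45% of the variance in the rank of the score lay between dense bins, against 3.59% between other bins with at least 10 peaks. A bin of this kind is therefore a mixture of weak and strong sites. The exact 95% interval of a bin's median lay above the median of all autosomal peaks in 29 dense bins, held it in 54 and lay below it in 1, which was the bin on chromosome 6 from 28000001 to 29000000.

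**Figure D4:**
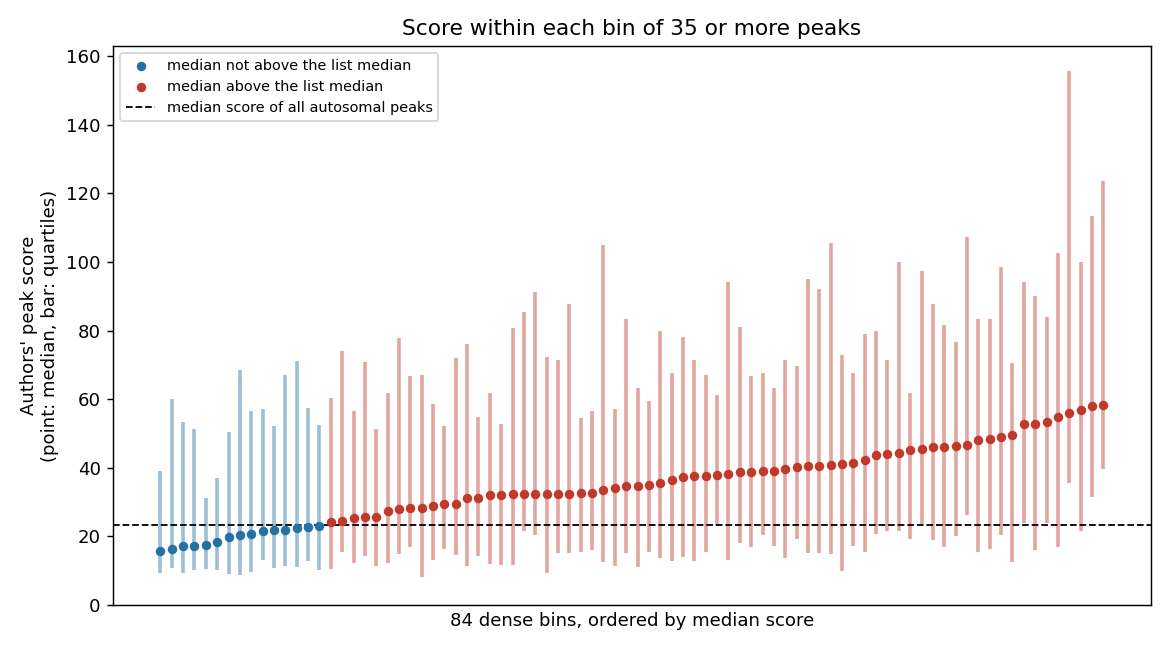
The 84 dense bins in order of their median score (x axis), with the authors' score on the y axis. Points are medians and bars run from the lower to the upper quartile of the peaks in a bin. The dashed line is the median of all autosomal peaks, 23.4. The 15 bins in blue have medians from 15.7 to 23.1, and their quartile bars overlap with those of most of the 69 bins in red.

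The highest median, 58.3 (44.8 to 83.9), was that of a bin on chromosome 16 from 30000001 to 31000000. It had 49 peaks, of which 16 scored above 100 and 4 below 10, and its median width of 731 bp was the largest of the dense bins. Its strongest peak, from 30064071 to 30064731, scored 281. A bin on chromosome 19 from 36000001 to 37000000 followed with 58.1 over 43 peaks, and its strongest peak, from 36103298 to 36103998, scored 213. On chromosome 16, a megabase from 2000001 to 3000000 had a median of 56.8 over 56 peaks and a strongest peak of 216 from 2264589 to 2265546. On chromosome 12, the bin from 56000001 to 57000000 had a median of 55.95 over 38 peaks. With 15 of them above 100 (39.5%), it had the largest share of strong peaks among the dense bins, led by one from 56842552 to 56843387 that scored 253. Chromosome 11 completed the highest 5 with a bin from 62000001 to 63000000, at 54.9 over 36 peaks, and its strongest peak, from 62413676 to 62414526, scored 214. The 95% intervals of these 5 medians overlapped.

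The lowest median, 15.7 (10.995 to 30.05), was that of a bin on chromosome 2 from 85000001 to 86000000 with 37 peaks. It still held 4 peaks above 100, the strongest from 85554760 to 85555503 with a score of 172. Next was the bin on chromosome 6 from 27000001 to 28000000, which had a median of 16.2 (12.5 to 32.1) over 56 peaks, with a strongest peak of 237 from 27832770 to 27833427. On chromosome 7, the bin from 1000001 to 2000000 had a median of 17.2 over 36 peaks, and its strongest peak, from 1177529 to 1178291, scored 149. On chromosome 12, the bin from 54000001 to 55000000, a megabase known to hold the HOXC cluster of developmental transcription factor genes, had a median of 17.2 over 49 peaks. Its strongest peak scored 213, from 54673288 to 54674574. Last of these, the bin on chromosome 6 from 28000001 to 29000000 had a median of 17.5 (11.5 to 20.6) over 48 peaks and only 1 peak above 100, which scored 179 from 28831153 to 28832340. None of these bins thus lacked a peak above 100, but the last had the lowest share of such peaks among the dense bins, 2.08%. Peaks below 10 made up 19.6 to 27.8% of the peaks in these bins. These shares were above the median of 16.3% over the 84 dense bins. They lay on both sides of the 25% found over all autosomal peaks.

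The dense bins with low medians had narrower peaks, and a larger share of close neighbours whose excess varied with the bin limits. A median score above that of all autosomal peaks was found in 69 dense bins (82.1%), against 44.5% of all autosomal bins with a peak and 50.3% of those with 10 to 34 peaks. The other 15 bins, with 617 peaks, had a median score of 19.4 over their peaks, against 38.8 over the 2981 peaks of the 69. Score chose these groups, so this gap is a description. Their median width was 398 bp (375 to 431), against 528 bp (515 to 544) in the 69. Width goes with score in this list, and rho between the median width and the median score of a dense bin was 0.81 over 84 bins. A neighbour within 1 kb was found for 29.7% (26.1 to 33.4%) of the peaks in the 15 bins and 22.0% (20.6 to 23.6%) in the 69. That gap was smaller with bins of 30 or more peaks, at 26.02 and 22.4%. It was also smaller with bins shifted by 500 kb, at 28.2 and 24.4%. In both cases the wide interval of the difference included 0. With bins of 40 or more peaks the gap was larger, at 33.6 and 22.1%, and its interval excluded 0. The median distance to the nearest peak was almost equal, at 6052 and 6474 bp.

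Strong peaks were fewer in the dense bins with low medians, but not missing from them. Score chose these groups, so the shares and counts here partly follow from that choice and are a description. A score above 100 was found for 13.3% (10.7 to 16.2%) of the low group's peaks. The share was 17.2% (15.9 to 18.6%) in the dense bins with high medians and 12.1% over all autosomal peaks. The intervals of the low and high groups overlapped slightly. Over the 84 dense bins, rho between the median score and the number of peaks above 100, both from the same scores, was 0.50. A score below 10 was found for 23.7% (20.4 to 27.2%) in the low group and 14.8% (13.6 to 16.2%) in the high group. Over all autosomal peaks it was 25%. In number per bin, the 15 bins held 5.47 peaks above 100 and the 69 held 7.43. The number of peaks differed little between the groups, with medians of 38 and 41 per bin.

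A run of 3 dense bins on chromosome 6 from 26000001 to 29000000 made up much of the gap in close neighbours. This part of the short arm is known for its large clusters of replication-dependent histone genes and of tRNA genes, short genes packed closely together. All 3 bins were among the 15 with low medians, with 22.8, 16.2 and 17.5. Of their 152 peaks, 63 (41.4%) had another peak within 1 kb. Their median score was 18.2, and 21 of them (13.8%) scored above 100. Without these bins the share with a close neighbour was 25.8% in the low group, against 22.0% in the high group, and the intervals overlapped. The highest share of all 84 bins was on chromosome 2 from 242000001 to 243000000, with 20 of 38 peaks (52.6%). It was also high at the tip of chromosome 20 from 1 to 1000000, with 18 of 39 (46.2%).

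Bins of equal number could look quite different along their length. The bin on chromosome 16 from 2000001 and that on chromosome 6 from 27000001 each held 56 peaks. The first had 14 peaks above 100 and 5 below 10, and the second had 12 and 11. The upper quartile was 99.9 in the first and 60.1 in the second, and the lower quartile was 21.4 and 10.9. The bins were thus close in their number of strong peaks, and the one on chromosome 6 had more weak ones. Its median distance to the nearest peak was 1358.5 bp, against 5711 bp on chromosome 16.

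**Figure D5:**
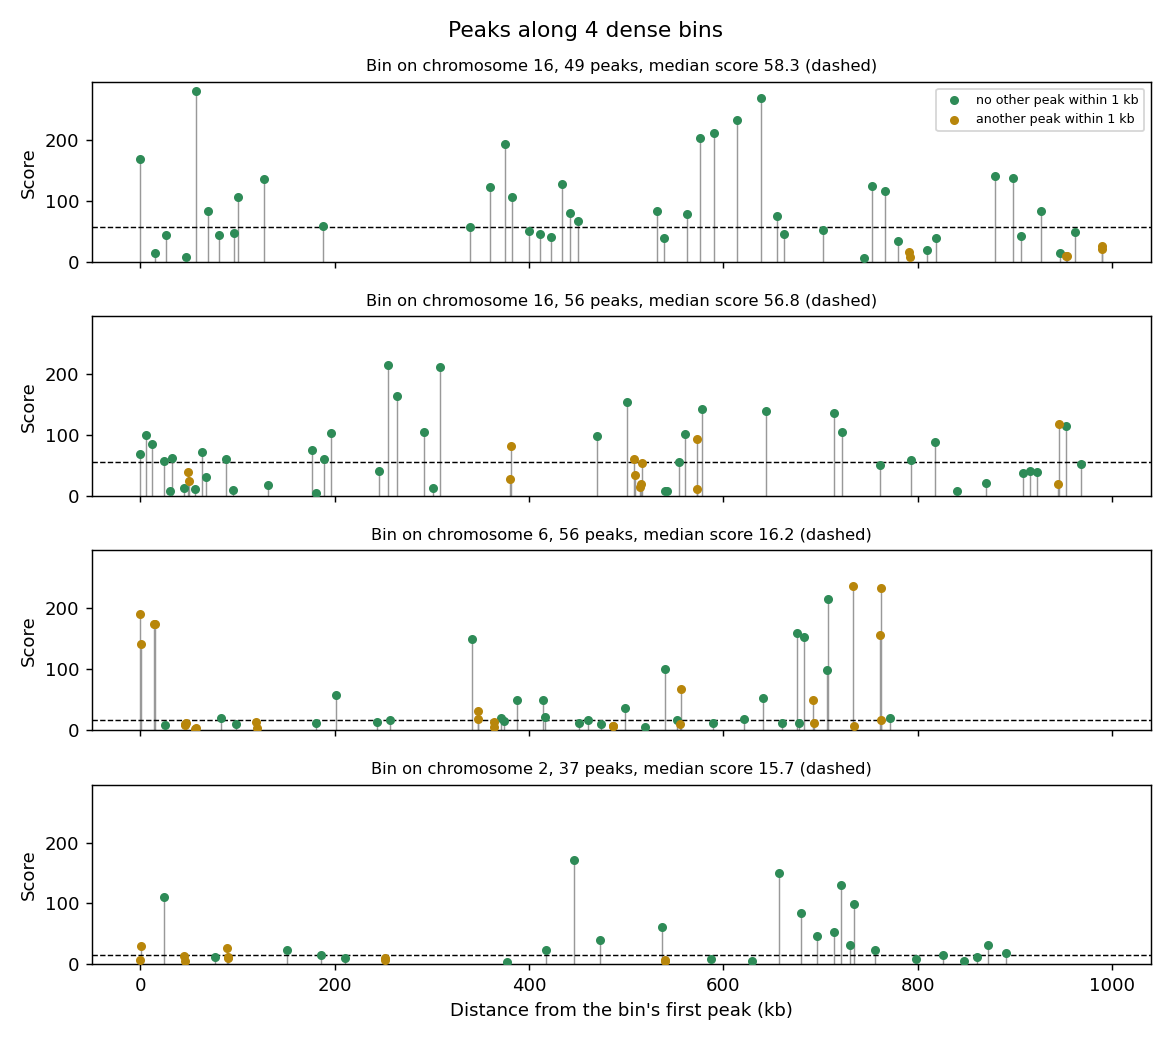
Peaks along 4 dense bins, placed by their distance from the first peak of the bin (x axis, kb), with the authors' score on the y axis. Green points have no other peak within 1 kb, orange points have one, and the dashed line is the bin's median score. From top to bottom the medians are 58.3, 56.8, 16.2 and 15.7, and the number of peaks above 100 is 16, 14, 12 and 4.

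The 10 fullest bins did not share a level of score. On chromosome 19, the megabase from 1000001 to 2000000 held 73 peaks with a median of 28.2 (21.5 to 46.4). Its strongest peak, from 1039730 to 1040322, scored 209, and 21 of its peaks had another within 1 kb. Next came the bin on chromosome 17 from 79000001 to 80000000, which held 63 peaks with a median of 48.1 and a strongest peak of 255 from 79818186 to 79819158. The bin on chromosome 11 from 65000001 to 66000000, a megabase known for the long noncoding RNA genes NEAT1 and MALAT1, held 60 with a median of 46.4. Its strongest peak, from 65728742 to 65729583, scored 167. After the pair with 56 peaks came bins with 54 peaks on chromosome 16 from 1 to 1000000 and on chromosome 19 from 49000001 to 50000000. The first had a median of 27.4 and a strongest peak of 202 from 838114 to 839062. The second had a median of 37.2. Bins with 52 peaks lay on chromosome 16 from 67000001 to 68000000 and on chromosome 17 from 7000001 to 8000000. Their medians were 38.8 and 53.3. The strongest peaks of these bins scored 201, from 67280545 to 67281848, and 217, from 7184511 to 7185238. The bin on chromosome 9 from 139000001 to 140000000 held 51 peaks with a median of 32.5. Only 2 of its peaks scored above 100, and the strongest, from 139434090 to 139434552, scored 159. Over the 84 dense bins, rho between number of peaks and median score was 0.21, and it was 0.31 without the 14 bins of chromosome 19.

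The 5 strongest sites in dense bins had their nearest neighbours between 5182 and 18519 bp away, on both sides of the dense-bin median of 6425 bp. The highest score, 311, belonged to a peak of 675 bp on chromosome 19 from 49223753 to 49224427, whose nearest neighbour was 5720 bp away. Peaks of 303 followed on chromosome 12 from 49716456 to 49717336 and on chromosome 1 from 156542005 to 156542732, with neighbours at 13341 and 18519 bp. The next were a peak of 297 on chromosome 15 from 40452927 to 40453540 and one of 294 on chromosome 11 from 64851126 to 64851850, with neighbours at 5182 and 11623 bp. They ranked 5, 9, 10, 16 and 18 among all autosomal peaks.

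The widest sites in dense bins scored above the dense-bin median of 34.7 and far below the highest score. Both of the widest lay in 1 bin of chromosome 8, at 2153 and 1846 bp, with scores of 77.6 and 47.8. The third, 1757 bp on chromosome 11 from 694636 to 696392, scored 45.3. The nearest pairs lay 77 bp apart. On chromosome 19 a peak of 67.2 from 892932 to 893504 was followed by one of 7.08 from 893582 to 893781. On chromosome 6 a peak of 14.2 from 33290327 to 33290570 was followed by one of 44.0 from 33290648 to 33291510.

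Scores that recur in the list were slightly less frequent in dense bins, with no even trend over the classes of density. There were 27 score values each held by at least 25 peaks, between 4.37 and 27.2. Of the dense-bin peaks in that range, 12.7% (11.1 to 14.5%) held one, against 14.4% of all autosomal peaks and 14.6% (14.0 to 15.2%) in other bins. The intervals of dense and other bins overlapped. By class, the share was 21.1% in bins with 1 to 5 peaks, 11.8% with 16 to 20 and 17.1% with 26 to 34. Among dense bins, the share was 13.4% in those with high medians and 10.3% in those with low medians. It ran from 0 to 39.1% over single dense bins, with the highest value in the bin on chromosome 7 from 1000001 to 2000000. Without these peaks the median scores were 38.3 in dense bins and 25.5 in the others. The part of the repeated values in the comparison of bins was otherwise not tested.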

How the data were processed

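The peak list of the E2F1 library, 1 of 2 samples, was used. Tools named in the submitters' processing notes are MACS2 2.0.9, Bowtie and CASAVA 1.6.0, with the build hg19, while the settings used and the peak threshold are not stated there. The score deposited by the authors has no stated scale and served only to describe and rank peaks within the list. The other values deposited by the authors are positions in bp.

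Peaks of chromosomes 1 to 22 were placed in 1 Mb bins by midpoint in Python 3.11.15 (scipy 1.17.1, numpy 2.4.6, pandas 2.3.3) and plotted with matplotlib 3.10.9. Distances run from edge to edge. The binning and spacing code was tested on simulated data. With 1 library there was no test. Low-scoring peaks were not filtered out. Named bins were the 10 fullest and the 5 with the highest and lowest medians. Named peaks were the strongest peak of each, the 5 strongest and 3 widest in dense bins and the nearest pairs. Other bins are named where a count singles them out and were chosen after their values were seen. The members, rule and lists were chosen with earlier results of these data known. The comparison of paired and lone peaks and the variance shares were added after seeing the data. Promoters, gene lists, GC content and motifs were not run, for want of an hg19 genome and annotation, so no sequence is shown. Alternatives were other thresholds, shifted bins, merged peaks, stricter scores and chromosomes left out.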

Additional observations from a re-analysis of the deposited data

How the results depend on the processing

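Of 58 alternative values, 0 turned the direction, 44 stayed in the interval of the value reported (counts: within 1.5 times) and 14 moved. Intervals of differences are the wide ones described above. With 30 or more peaks 138 bins qualified, with 40 or more 50 bins and 2338 peaks, and with close peaks merged 54 bins and 2201 peaks, by construction. The excess of dense bins in median width, 98.5 bp, was 117 bp with 40 or more peaks, 6.5 bp in the top 50% by score and 6.9 bp within quintiles by score. The excess in median score, 12.6, was 2.24 in the top 50% and, chosen after seeing the data, 17.2 among lone peaks. In the top 50% the intervals of both the width and the score difference include 0. The difference in distance to the nearest peak, -12635.5 bp, was -13617 bp with 30 or more peaks and -27163.5 bp in the top 50%. The excess with a close neighbour, 6.93 percentage points, was 1.90 in the top 50% and 17.5 for 5 kb. The lower share with a close neighbour in dense bins of high median, -7.62 percentage points, was -3.65 with 30 or more peaks, -3.79 with shifted bins, -5.69 without repeated score values and, chosen after seeing the data, -3.77 without the 3 bins of chromosome 6. The intervals of these 4 values include 0. The lower score of paired peaks kept its direction in 6 alternatives, all chosen after seeing the data, from -15.8 to -12.8. Promoter and motif alternatives were not run, for want of an hg19 genome. No paired analysis was possible because peaks of a single library were used. The list gives no read counts, so limits set by depth are unknown.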

Other observations

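No bin of chromosome X or Y reached 35 peaks. The fullest bin of X, from 153000001 to 154000000, held 31 peaks with a median score of 45.5, and the next, from 48000001 to 49000000, held 27 with 34.7. The fullest bin of Y, from 13000001 to 14000000, held 18 of that chromosome's 35 peaks with a median of 20.5.

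The count of strong peaks picks out partly different megabases. At least 6 peaks above 100 were found in 104 of the 2546 autosomal bins with a peak. Of these 104, 58 (55.8%) were dense bins, which make up 3.30% of all autosomal bins with a peak. So 58 of the 84 dense bins (69.0%) belonged to that set. Much of this overlap follows from the number of peaks that chose the dense bins.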
